A study of Homo sapiens with 6 samples.

Results

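The genes described here encode enzymes that add methyl groups to histone lysines, enzymes that remove them, and PHF proteins, which carry PHD fingers. The rule that chose them reads gene symbols and no measured value, but it was set with earlier results of these data known. A gene was a member if its probe sets named it as the single symbol and that symbol was a KDM, KMT2, SETD, NSD, PHF, EZH, EHMT or SUV39H gene of the usual numbering. The rule found 55 genes among the 19775 with such a probe set, and each was represented by its brightest probe set. Of these, 54 reached the array median in at least 2 arrays and were tested among 12413 genes. PHF24 did not, with intensities of 2.7 to 6.2. The samples were 6 of VCaP, an established human prostate cancer cell line, each carrying a short hairpin RNA (shRNA). A non-targeting control hairpin (NTC), PRMT5 shRNA 1 and PRMT5 shRNA 2 had 2 arrays each. All of them, the control included, had been given 100 ng/ml doxycycline for 3 days, and no sample without doxycycline was among them. PRMT5 transfers methyl groups to arginines of histones and of other proteins. Whether the replicates came from separate cultures is not said in the labels, and p-values measure only how far these samples scatter, a scatter that may be technical.

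Lysine methylation of histones marks the state of a gene. Methylation of H3K4 is found at promoters and enhancers, that of H3K36 along transcribed genes, and that of H3K9 and H3K27 mostly at silent chromatin. The writers share a catalytic SET domain and take the methyl group from S-adenosylmethionine. The KDM1 enzymes remove it with flavin (FAD), and the other demethylases do so through a JmjC domain that needs iron, oxygen and 2-oxoglutarate. Many PHD fingers bind the tail of histone H3 according to its methylation, but the PHF symbols cover proteins of quite different roles. In prostate cancer cells the demethylases KDM1A, KDM3A and KDM4B are known as coactivators of the androgen receptor, and EZH2 is known for its high level in advanced tumours.

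PRMT5 intensity was 810 and 880.5 with NTC, 136 and 134 with PRMT5 shRNA 1 (15.9% of the control mean), and 291 and 321 with PRMT5 shRNA 2 (36.2%). Arrays of 1 group correlated at 0.996 to 0.997 over the genes tested, and arrays of different groups at 0.976 to 0.991. Of 9 markers of VCaP cells, 7 had values here and all 7 passed the filter, with 222 to 1446 in the control arrays. In the averaged comparison KLK3 (1.13), KRT8 (0.58) and KRT18 (0.27) were called higher and HOXB13 (-0.28), TMPRSS2 (-0.21) and ERG (-0.21) lower. HOXB13 (0.37) and ERG (0.38) were higher with shRNA 2 than with shRNA 1. Of 10 markers of blood, endothelial, stromal or basal cells with values, COL1A1 alone passed, with 29.7 and 35.8 in the control arrays, and it was higher with shRNA 2 than with shRNA 1 (0.54, limma, adjusted p = 0.016). The summed level of these 10 was 73.3 to 82.4 with NTC, 66.7 to 83.8 with shRNA 1 and 73.5 to 93.1 with shRNA 2. In bulk cultures, fewer cells with a transcript and less of it per cell cannot be told apart.

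The main comparison asked how these genes differ after PRMT5 knockdown, with both hairpins averaged and set against NTC. The genes that rose were JmjC demethylases, KDM7A, KDM3A, KDM4B and KDM5B, by 0.24 to 0.85 on the log2(intensity + 16) scale. The genes that fell were methyltransferases (NSD1, KMT2B, SUV39H2, SETD4, NSD2 and EZH2) and PHF genes (PHF5A, PHF6, PHF14 and PHF20), by 0.18 to 0.48. By limma's test at a Benjamini-Hochberg adjusted p of 0.05, the calls among the 54 tested members were 4 higher and 10 lower, which left 40 without a call. That is 25.9% called, where 32.4% of all genes tested were called (15.4% higher and 17.0% lower), so the members were not called more often than genes at large. By family, 4 of 15 KDM genes rose and 0 fell, 0 of 23 methyltransferases rose and 6 fell, and 0 of 16 tested PHF genes rose and 4 fell. The median log2 difference was 0.07 over the KDM genes, -0.13 over the methyltransferases and -0.15 over the PHF genes, beside -0.01 over all genes. These family counts describe the lists and no test between families was made. In 24 of the 54 members the ranges of the 4 knockdown arrays and of the 2 NTC arrays did not overlap, with knockdown above in 6 and below in 18. Of all genes, 39.2% were separated in this way, 18.7% above and 20.5% below.

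**Figure D1:**
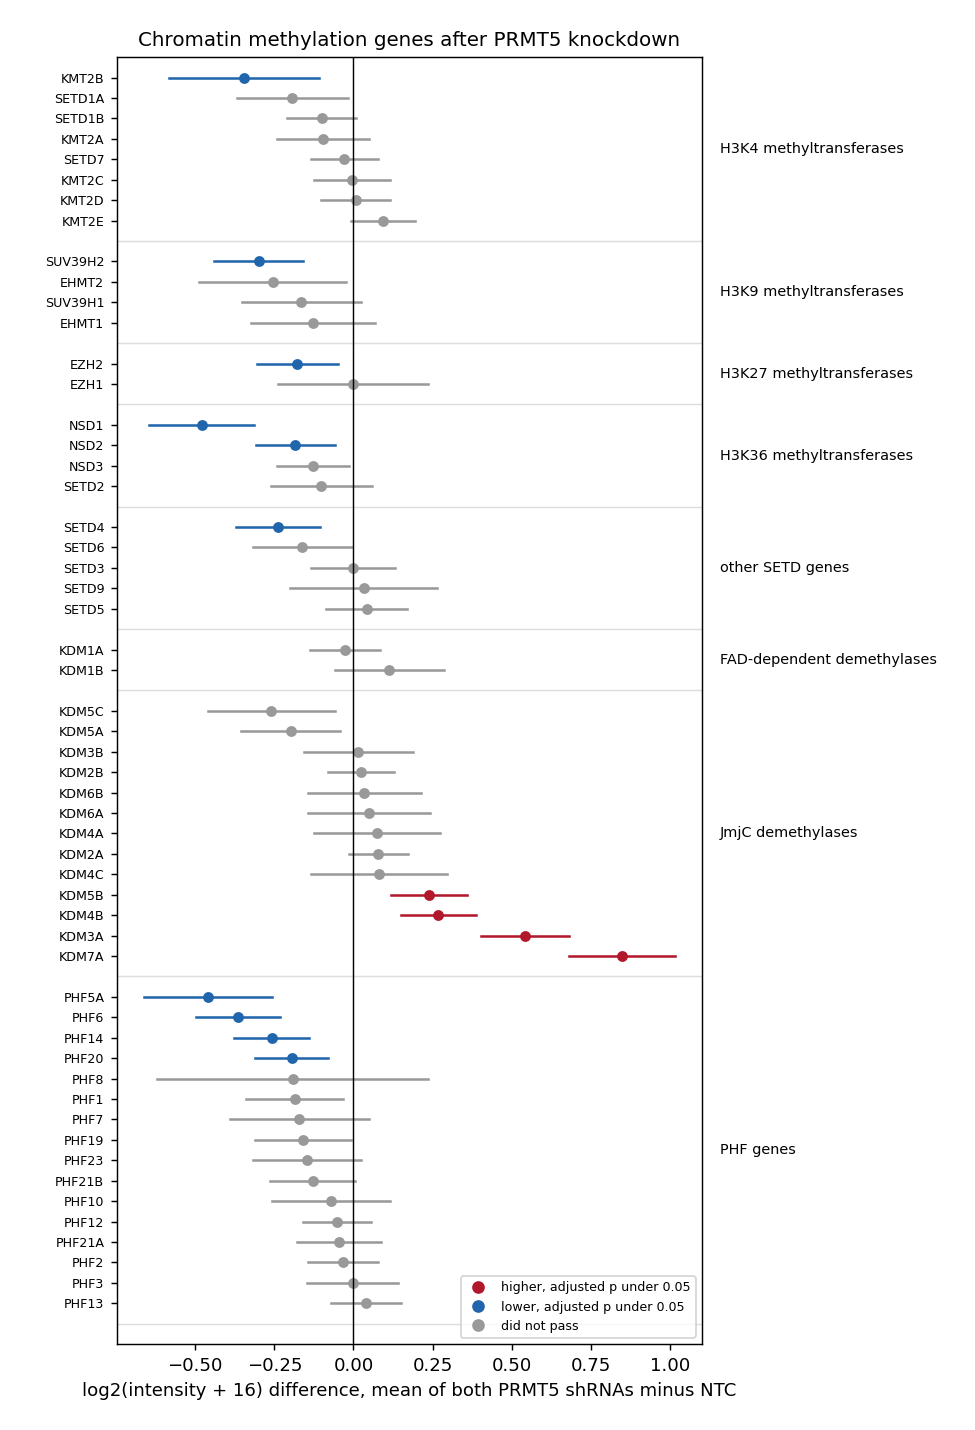
Log2(intensity + 16) difference of the mean of both PRMT5 shRNAs from NTC for the 54 tested genes, 1 row per gene, grouped by the role of the protein. Points are limma's estimates and bars their 95% intervals, with red for genes called higher, blue for genes called lower and grey for the rest. All red points are JmjC demethylases, and KDM7A lies farthest to the right at 0.85.

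KDM7A, which removes methyl groups from H3K9 and H3K27, had the largest rise. Its intensity was 229 and 256 with NTC, 534 and 466 with PRMT5 shRNA 1, and 388 and 419 with PRMT5 shRNA 2. All knockdown arrays lay above both controls, and the shRNA 1 arrays lay above the shRNA 2 arrays. The log2 difference was 0.85 ± 0.08 (SE) for the averaged hairpins (limma, adjusted p = 1.2e-05), 1.00 ± 0.09 with shRNA 1 and 0.70 ± 0.09 with shRNA 2. KDM3A, an H3K9 demethylase, read 508 and 521 with NTC, 721 and 727 with shRNA 1, and 737 and 844 with shRNA 2. The groups did not overlap, and the averaged difference was 0.54 ± 0.06 (limma, adjusted p = 8.6e-05), with 0.48 ± 0.07 for shRNA 1 and 0.60 ± 0.07 for shRNA 2.

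KDM4B, which acts on trimethylated H3K9, had smaller differences. It read 1059.7 and 989 with NTC, 1192 and 1284 with PRMT5 shRNA 1, and 1252 and 1219 with PRMT5 shRNA 2, so that knockdown and control arrays did not overlap. The difference was 0.27 ± 0.05 (SE) averaged (limma, adjusted p = 0.0035), and 0.27 ± 0.06 with each hairpin. KDM5B, which removes methyl groups from H3K4, read 527 and 541 with NTC, 659 and 638 with shRNA 1, and 618 and 617 with shRNA 2. All knockdown arrays were above the controls here too, and the averaged difference was 0.24 ± 0.05 (limma, adjusted p = 0.0066), with 0.27 ± 0.06 and 0.21 ± 0.06 for the hairpins. Without NTC replicate 2 KDM4B was not called (0.22, limma, adjusted p = 0.0645), nor was KDM5B without NTC replicate 1 (0.22, limma, adjusted p = 0.0741). The brightest probe sets of both genes are _s_at sets, whose probes match several transcripts, and _x_at sets can also match unrelated ones. Without these kinds, KDM4B did not pass (0.20, limma, adjusted p = 0.137) and KDM5B had the opposite sign (-0.28, limma, adjusted p = 0.0669). Against shRNA 2 alone, KDM5B passed with all arrays (limma, adjusted p = 0.038) but not when any single array was left out (0.19 to 0.22).

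**Figure D2:**
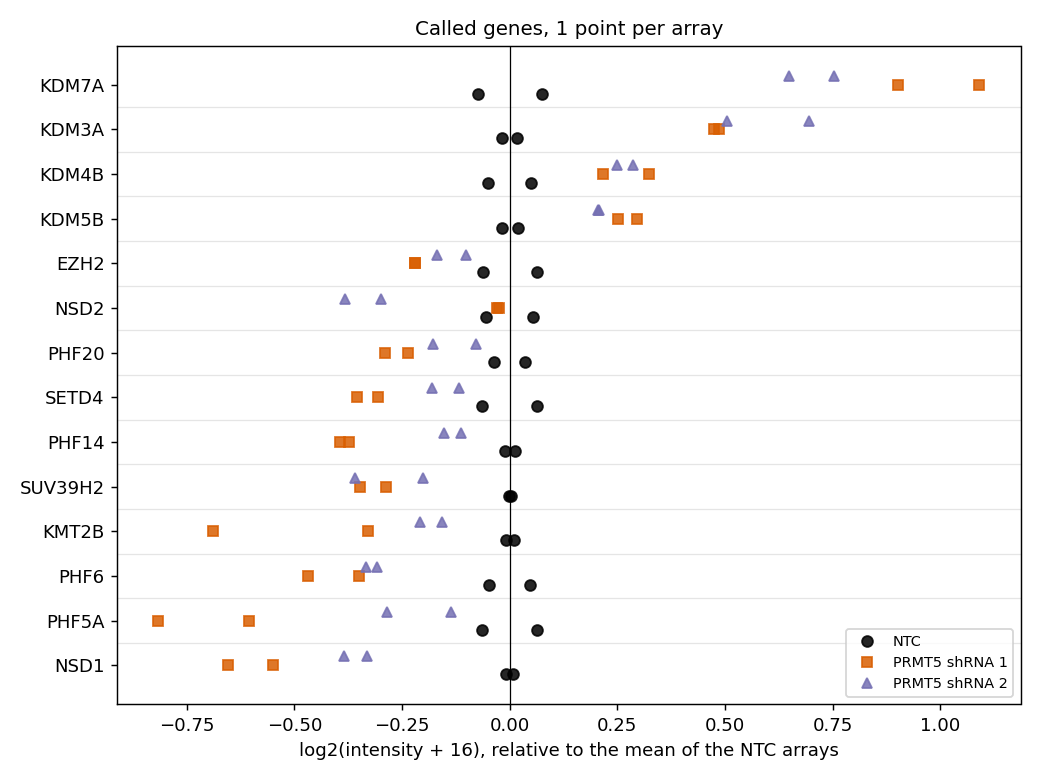
Log2(intensity + 16) of the 14 called genes in each of the 6 arrays, relative to the mean of the NTC arrays. Circles are NTC, squares PRMT5 shRNA 1 and triangles PRMT5 shRNA 2, 1 point per array, and in NSD2 the squares lie among the circles while in the other 13 genes they do not.

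The promoters of the 4 genes called higher in these data are shown because KDM3A and KDM4B are known targets of the hypoxia-inducible factors (HIF). The binding sites of these factors contain the core ACGTG or GCGTG. The windows run from 250 bases before to 50 bases after a transcription start (RefSeq, GRCh38.p14), 5′ to 3′ on the gene's strand, with each match to ACGTG or GCGTG on either strand in capitals. They are chr7:140176934-140177233 (minus strand), chr2:86441121-86441420 (plus strand), chr19:4968863-4969162 (plus strand) and chr1:202808372-202808671 (minus strand).
KDM7A: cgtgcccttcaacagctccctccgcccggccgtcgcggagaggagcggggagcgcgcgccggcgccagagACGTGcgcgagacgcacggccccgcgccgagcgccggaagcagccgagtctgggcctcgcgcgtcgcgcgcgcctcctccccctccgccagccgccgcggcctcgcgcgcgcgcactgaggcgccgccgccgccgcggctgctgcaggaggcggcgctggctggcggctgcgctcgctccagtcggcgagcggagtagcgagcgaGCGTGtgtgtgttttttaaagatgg
KDM3A: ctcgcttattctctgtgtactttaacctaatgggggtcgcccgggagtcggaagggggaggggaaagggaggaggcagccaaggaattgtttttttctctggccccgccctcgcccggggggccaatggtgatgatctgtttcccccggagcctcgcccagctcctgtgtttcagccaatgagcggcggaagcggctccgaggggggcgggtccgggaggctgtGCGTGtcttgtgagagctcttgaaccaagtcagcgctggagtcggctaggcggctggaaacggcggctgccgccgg
KDM4B: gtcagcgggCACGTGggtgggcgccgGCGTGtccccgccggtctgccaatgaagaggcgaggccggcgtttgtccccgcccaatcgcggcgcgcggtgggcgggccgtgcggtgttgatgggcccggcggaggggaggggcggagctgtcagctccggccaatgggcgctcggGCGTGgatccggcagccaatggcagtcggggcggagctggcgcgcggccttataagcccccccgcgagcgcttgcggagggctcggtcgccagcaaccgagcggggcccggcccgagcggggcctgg
KDM5B: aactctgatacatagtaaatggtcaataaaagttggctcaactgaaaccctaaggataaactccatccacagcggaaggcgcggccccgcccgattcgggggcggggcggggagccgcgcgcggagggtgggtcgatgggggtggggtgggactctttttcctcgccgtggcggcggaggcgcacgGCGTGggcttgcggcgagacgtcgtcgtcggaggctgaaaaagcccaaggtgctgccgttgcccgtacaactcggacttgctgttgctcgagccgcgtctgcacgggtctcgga
KDM4B holds 4 matches, of which a pair overlaps as CACGTG, KDM7A holds 2, and KDM3A and KDM5B hold 1 each. KDM3A has a second listed start whose window overlaps this one and holds the same match. The core is short and common. It is found in 48.4% of all 35116 windows of this length, or in the windows of 52.4% of all genes, and in 58.3% of the 72 windows of the members, whose median GC content was 69.3% against 58.7% for all windows. By gene, 4 of the 4 KDM genes that rose hold it, and 9 of the 11 that did not pass. So do 6 of the 8 members that fell and have a window, and 35 of all 49 members with a window. These are counts of letters, and no binding was measured.

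The other 11 KDM genes did not pass the averaged test. KDM1A, the founding lysine demethylase, read 1072 and 1137 with NTC, 1138 and 1121 with PRMT5 shRNA 1, and 1024 and 1057 with PRMT5 shRNA 2. Knockdown and control arrays overlapped, and the 95% interval of the averaged log2 difference ran from -0.14 to 0.09. KDM5C (-0.26 ± 0.09 SE, limma, adjusted p = 0.0501) and KDM5A (-0.20 ± 0.07, limma, adjusted p = 0.053), H3K4 demethylases like KDM5B, had negative values close to the threshold. The other KDM5A probe sets gave 0.16, 0.10, 0.08 and -0.19, none of them called. The one at 0.08 was called higher with PRMT5 shRNA 1 (0.28 ± 0.09, limma over probe sets, adjusted p = 0.034). KDM5C was called lower with shRNA 1 (-0.37 ± 0.11, limma, adjusted p = 0.0172), where it read 148 and 123.1 against 178 and 180.1 with NTC, but not without NTC replicate 1 (-0.36, limma, adjusted p = 0.0775), NTC replicate 2 (-0.38, 0.0670) or shRNA 1 replicate 2 (-0.25, 0.154). The mean over its probe sets was not called either (-0.17, limma, adjusted p = 0.0848), and its other probe set gave 0.02 with shRNA 1. Differences of the other 8, KDM1B, KDM2A, KDM2B, KDM3B, KDM4A, KDM4C, KDM6A and KDM6B, lay between 0.02 and 0.11. KDM6B, an H3K27 demethylase, did not pass on its brightest probe set (0.03 ± 0.08), but another of its probe sets, with 118 to 129 in controls and 125 to 175 in knockdown arrays, was called higher (0.27 ± 0.08, limma over probe sets, adjusted p = 0.0256). On that probe set both shRNA 1 arrays read 175 and the shRNA 2 arrays 136 and 125. KDM4C, an H3K9 demethylase, gave 0.08 on its brightest probe set, but a dim one was called higher (0.69 ± 0.10, limma over probe sets, adjusted p = 0.00060), reading 13.1 and 14.8 with NTC, 31.9 and 30.4 with shRNA 1, and 29.3 and 38.5 with shRNA 2. Its knockdown arrays all lay above the controls.

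Among writers of H3K36 methylation, NSD1 fell. On brightest probe sets its averaged difference was the lowest of the members, while with shRNA 1 that of PHF5A was lower. It read 191 and 189 with NTC, 125 and 115 with PRMT5 shRNA 1, and 148 and 142 with PRMT5 shRNA 2. The groups did not overlap, and the log2 difference was -0.48 ± 0.08 (SE) averaged (limma, adjusted p = 0.00071), -0.60 ± 0.09 with shRNA 1 and -0.36 ± 0.09 with shRNA 2. NSD2, its paralog, read 798 and 862 with NTC, 812 and 815 with shRNA 1, and 671 and 632 with shRNA 2. The shRNA 1 arrays lay between the controls and the shRNA 2 arrays below them. Its averaged fall of -0.18 ± 0.06 (limma, adjusted p = 0.029) came from shRNA 2 (-0.34 ± 0.07, limma, adjusted p = 0.0036), against -0.03 ± 0.07 with shRNA 1. It lost the averaged call without NTC replicate 1 (-0.24, limma, adjusted p = 0.055), NTC replicate 2 (-0.13, 0.272), shRNA 1 replicate 1 (-0.18, 0.0652) or shRNA 1 replicate 2 (-0.19, 0.0636). NSD3 (-0.13 ± 0.05) and SETD2, which adds the third methyl group to H3K36 (-0.10 ± 0.07), did not pass.

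Of the 8 members that are H3K4 methyltransferases, 1 fell and 0 rose in the averaged comparison. KMT2B, which methylates H3K4 at promoters, was dim, with 75.1 and 76.3 in NTC, 57.0 and 40.9 with PRMT5 shRNA 1, and 63.4 and 66.3 with PRMT5 shRNA 2. All knockdown arrays lay below both controls, and the difference was -0.35 ± 0.11 (SE, limma, adjusted p = 0.031), with -0.51 ± 0.12 for shRNA 1 and -0.18 ± 0.12 for shRNA 2, which did not pass (limma, adjusted p = 0.335). Its call was lost without NTC replicate 1 (-0.35, limma, adjusted p = 0.125), NTC replicate 2 (-0.34, 0.141), shRNA 1 replicate 2 (-0.26, 0.0775) or shRNA 2 replicate 1 (-0.33, 0.0610). The large KMT2 enzymes KMT2C and KMT2D, which act at enhancers, gave values of -0.00 ± 0.05 and 0.01 ± 0.05 on their brightest probe sets. The 95% intervals ran from -0.12 to 0.11 and from -0.10 to 0.12. Another KMT2C probe set was called higher with shRNA 1 (0.50 ± 0.12, limma over probe sets, adjusted p = 0.0071) and not with shRNA 2 (-0.17 ± 0.12). KMT2A gave -0.10 ± 0.07, SETD1A -0.19 ± 0.08, SETD1B -0.10 ± 0.05, SETD7 -0.03 ± 0.05 and KMT2E 0.09 ± 0.05. A dim KMT2A probe set was called lower with shRNA 1 (-0.53 ± 0.10, limma over probe sets, adjusted p = 0.0017). A different KMT2A one was called lower with shRNA 2 (-0.29 ± 0.08, limma over probe sets, adjusted p = 0.028). No probe set of KMT2A or KMT2C was called with the hairpins averaged. With PRMT5 shRNA 1, KMT2E was called higher (0.17 ± 0.05, limma, adjusted p = 0.026), a call lost in 7 of 14 alternatives. Its other 2 kept probe sets were called higher with shRNA 1 too (0.47 ± 0.08 and 0.23 ± 0.07). SETD1B was called lower with PRMT5 shRNA 2 (-0.18 ± 0.06, limma, adjusted p = 0.049), a call lost in 10 of 14 alternatives.

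The 4 members that write H3K9 methylation all had negative averaged values, and 1 of them passed. SUV39H2, which trimethylates H3K9 in heterochromatin, read 571 and 573 with NTC, 466 and 446.5 with PRMT5 shRNA 1, and 442 and 495 with PRMT5 shRNA 2. The knockdown arrays were all below the controls and the hairpins overlapped each other. Its averaged difference was -0.30 ± 0.06 (SE, limma, adjusted p = 0.0046), with -0.32 ± 0.07 and -0.28 ± 0.07 for the hairpins. EHMT2 (-0.26 ± 0.11), SUV39H1 (-0.17 ± 0.09) and EHMT1 (-0.13 ± 0.09) did not pass the averaged test. EHMT2 was called lower with shRNA 1 (-0.39 ± 0.12, limma, adjusted p = 0.0256), a call lost in 4 of 14 alternatives. EZH2, the H3K27 methyltransferase of Polycomb repressive complex 2, read 783 and 717 with NTC, 641 in each shRNA 1 array, and 665 and 698 with shRNA 2. The groups did not overlap, but the gap to the lower control was small. The difference of -0.18 ± 0.06 passed (limma, adjusted p = 0.037) and was lost when any array but shRNA 2 replicate 2 was left out, with -0.12 without NTC replicate 1 (limma, adjusted p = 0.344), -0.24 without NTC replicate 2 (0.0526), and -0.16 to -0.18 without shRNA 1 replicate 1, shRNA 1 replicate 2 or shRNA 2 replicate 1 (0.0757, 0.0782 and 0.0659). EZH2 passed with shRNA 1 (-0.22 ± 0.07) and not with shRNA 2 (-0.13 ± 0.07, limma, adjusted p = 0.182). EZH1, its paralog, was dim at 51.5 to 80.5 and gave -0.00 ± 0.11, with a 95% interval from -0.24 to 0.23.

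Other SETD genes gave 1 fall in 5. SETD4 read 621 and 679.7 with NTC, 522 and 505 with PRMT5 shRNA 1, and 571 and 598 with PRMT5 shRNA 2. The knockdown arrays lay below the controls, and the difference was -0.24 ± 0.06 (SE, limma, adjusted p = 0.012), without a call when NTC replicate 2 was left out (-0.18, limma, adjusted p = 0.156). It passed with shRNA 1 (-0.33 ± 0.07) and not with shRNA 2 (-0.15 ± 0.07, limma, adjusted p = 0.156). SETD3, which methylates a histidine of actin, gave -0.00 ± 0.06, SETD5 0.04 ± 0.06, SETD9 0.03 ± 0.11 and SETD6 -0.16 ± 0.07, and none of the 4 passed on its brightest probe set. The other SETD6 probe set was called lower (-0.35 ± 0.07, limma over probe sets, adjusted p = 0.0042), reading 184 and 179.8 with NTC, 125 and 123.1 with shRNA 1, and 154 and 158 with shRNA 2.

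The PHF genes that fell include a splicing factor. PHF5A, a subunit of the SF3b complex that recognises the branch point of introns, read 152.5 and 168 with NTC, 84.0 and 99.8 with PRMT5 shRNA 1, and 128 and 144 with PRMT5 shRNA 2. The knockdown arrays lay below the controls, those of shRNA 1 by more, and the log2 difference was -0.46 ± 0.09 (SE) averaged (limma, adjusted p = 0.0032), -0.71 ± 0.11 with shRNA 1 and -0.21 ± 0.11 with shRNA 2 (limma, adjusted p = 0.187). PHF6, a chromatin protein mutated in T-cell leukaemia, read 722 and 674.5 with NTC, 544 and 500.2 with shRNA 1, and 550.3 and 561 with shRNA 2. All knockdown arrays lay well below the controls, and the difference was -0.37 ± 0.06 (limma, adjusted p = 0.00099), with -0.41 ± 0.07 and -0.32 ± 0.07 for the hairpins.

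PHF14 read 688 and 699 with NTC, 532 and 524 with PRMT5 shRNA 1, and 639.8 and 622 with PRMT5 shRNA 2. Both hairpins lay below NTC, shRNA 1 by more, and the difference was -0.26 ± 0.05 (SE) averaged (limma, adjusted p = 0.0041), -0.38 ± 0.06 with shRNA 1 and -0.13 ± 0.06 with shRNA 2, which did not pass (limma, adjusted p = 0.154). PHF20, a subunit of an acetyltransferase complex of histone H4, read 1327 and 1263 with NTC, 1057 and 1097 with shRNA 1, and 1226 and 1142 with shRNA 2. The knockdown arrays lay below the controls, with a difference of -0.20 ± 0.05 (limma, adjusted p = 0.016), and its call was lost without NTC replicate 1 (-0.16, limma, adjusted p = 0.173) or NTC replicate 2 (-0.23, 0.055). It passed with shRNA 1 (-0.26 ± 0.06) and not with shRNA 2 (-0.13 ± 0.06, limma, adjusted p = 0.164). With both hairpins as 1 group, PHF14 (limma, adjusted p = 0.129) and PHF5A (0.138) also lost the averaged call.

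The other 12 tested PHF genes did not pass, with values from -0.19 to 0.04. They include PHF1 (-0.19 ± 0.07 SE) and PHF19 (-0.16 ± 0.07), accessory subunits of Polycomb repressive complex 2, PHF10 (-0.07 ± 0.09), of a chromatin remodelling complex, and the JmjC demethylase PHF2 (-0.03 ± 0.05). Other probe sets were called lower for PHF19 (-0.52 ± 0.08, limma over probe sets, adjusted p = 0.00051) and PHF10 (-0.34 ± 0.07, 0.0050). The PHF10 one read 333 and 322 with NTC, 209 and 225 with PRMT5 shRNA 1, and 281.5 and 317 with PRMT5 shRNA 2. PHF8, another JmjC demethylase, varied most between replicates, with 803 and 634 in NTC, 479.8 and 844 with PRMT5 shRNA 1, and 503 and 734 with PRMT5 shRNA 2. Its difference was -0.19 ± 0.19, and its 95% interval, from -0.62 to 0.24, was the only one of the 40 members not called to reach beyond 0.5 in either direction. PHF12, PHF13, PHF21A and PHF3 gave -0.05, 0.04, -0.05 and -0.00.

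Most of the 14 called genes were measured by several probe sets, which sample different stretches of a transcript. The other kept probe sets of 10 of them numbered 27, of which 22 had the sign of the brightest one. KDM7A rose on its other probe set, which read 82 to 95 with NTC and 173 to 228 after knockdown (1.02 ± 0.09 SE, limma over probe sets, adjusted p = 1.2e-05), and PHF14 fell on its other one (-0.42 ± 0.07, limma over probe sets, adjusted p = 0.0012). NSD1 did not behave alike on its probe sets. The other 3, with 23 to 130 in controls, gave -0.13, -0.08 and 0.03, none of which passed, and with the mean over its probe sets NSD1 was not called (-0.16, limma, adjusted p = 0.118). In NSD2 1 of the other probe sets was called lower (-0.22 ± 0.06) and 1 higher (0.26 ± 0.06). The single other probe sets of SUV39H2 and PHF6 gave -0.07 and -0.05, with both shRNA 1 arrays above and both shRNA 2 arrays below the controls. EZH2, KDM3A, KMT2B and PHF5A had 1 kept probe set each. The 40 genes not called had 62 other kept probe sets in 30 of them, of which 10 were called, 4 higher and 6 lower (16.1%, where 29.1% of all kept probe sets were). They belong to KDM4C, KDM6B, KMT2E, NSD3, PHF10, PHF19, PHF3, PHF7 and SETD6. For KDM4B, 5 of 6 other probe sets were positive, and for KDM5B 2 of 3, the negative one reading 38 to 45 in controls.

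**Figure D3:**
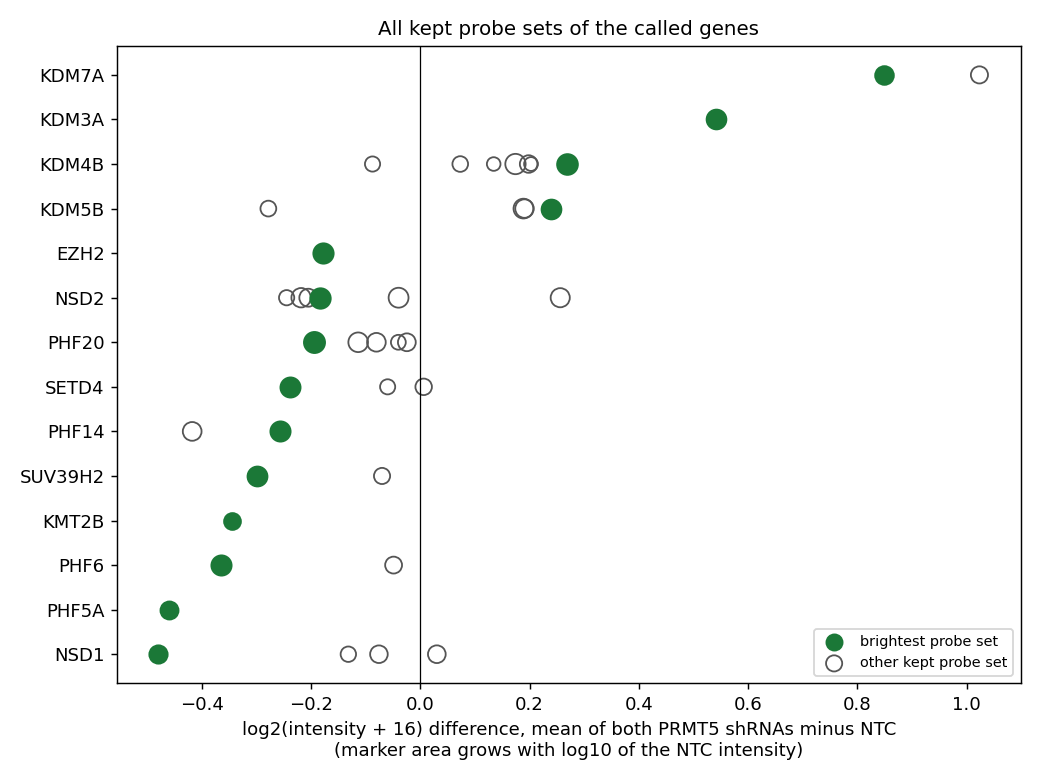
Log2(intensity + 16) difference of both PRMT5 shRNAs averaged from NTC for every kept probe set of the 14 called genes. Filled circles are the brightest probe set of a gene and open circles the others, with an area that grows with log10 of the control intensity. The KDM7A circles both lie above 0.8, while the open circles of NSD1 lie near 0 and an open circle of NSD2 lies at 0.26, on the other side of 0 from its filled one.

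The hairpins were then compared with NTC one at a time and with each other. Both comparisons with NTC use the same 2 control arrays. With PRMT5 shRNA 1, 22 of 54 members were called (40.7%, where 39.3% of all genes were), 5 higher and 17 lower (16.2% and 23.1% of all genes). With PRMT5 shRNA 2, 9 were called (16.7%, where 21.4% of all genes were), 4 higher and 5 lower (13.1% and 8.39% of all genes). PHF genes differed in number, with 9 of 16 lower with shRNA 1 and 1 of 16, PHF6, with shRNA 2. With shRNA 1, PHF5A, PHF14 and PHF21B kept their call in all 14 alternatives. PHF1 (-0.29 ± 0.08 SE) and PHF23 lost it in 4, PHF19 in 3, PHF20 and PHF7 in 2 and PHF6 in 1. The other probe sets of PHF6 and PHF23 gave 0.28 ± 0.11 and 0.08 ± 0.11 with shRNA 1, neither of them called. The direct comparison, whose difference comes from the 4 knockdown arrays and whose spread is estimated over all 6 arrays, called 10 of 54 members (18.5%, where 25.7% of all genes were), 7 higher with shRNA 2 than with shRNA 1 and 3 lower. Over all genes 18.3% were higher and 7.38% lower, and the median difference was 0.06, beside 0.09 over the members.

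On brightest probe sets, PHF21B, a paralog of the PHD protein PHF21A of the KDM1A corepressor complex, differed most. It read 419 and 423 with NTC, 312 and 307 with PRMT5 shRNA 1, and 489 and 459.8 with PRMT5 shRNA 2. The controls lay between the hairpins, and the log2 difference of shRNA 2 from shRNA 1 was 0.59 ± 0.07 (SE; limma, adjusted p = 0.00064), with -0.42 ± 0.07 and 0.17 ± 0.07 against NTC. PHF7, a PHD protein of the testis, read 70.8 and 68.9 with NTC, 54.2 and 41.4 with shRNA 1, and 74.0 and 77.1 with shRNA 2. On this _s_at probe set the shRNA 1 arrays alone lay below the controls, and the hairpins differed by 0.53 ± 0.12 (limma, adjusted p = 0.0086). With _x_at and _s_at sets left out, the difference was 0.07 (limma, adjusted p = 0.71). PHF5A, whose arrays are given above, differed by 0.50 ± 0.11 (limma, adjusted p = 0.0076).

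PHF23 read 185 and 206.5 with NTC, 153 and 157 with PRMT5 shRNA 1, and 206 and 189.8 with PRMT5 shRNA 2, and the hairpins differed by 0.32 ± 0.09 (SE, limma, adjusted p = 0.024). NSD3 read 826.5 and 833 with NTC, 699 and 675 with shRNA 1, and 845 and 827 with shRNA 2, a difference of 0.28 ± 0.06 (limma, adjusted p = 0.0080). In both genes the shRNA 2 arrays lay close to the controls and the shRNA 1 arrays below them. The same order was seen in PHF19, with 229.5 and 238 in NTC, 184 and 195 with shRNA 1 and 232 and 224 with shRNA 2 (0.25 ± 0.08, limma, adjusted p = 0.043). PHF14 differed by 0.25 ± 0.06 (limma, adjusted p = 0.015).

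KDM3B, an H3K9 demethylase like KDM3A, went the other way. It read 1021 and 1166 with NTC, 1289.5 and 1252 with PRMT5 shRNA 1, and 869 and 1055 with PRMT5 shRNA 2, so that shRNA 1 lay above the controls and shRNA 2 overlapped them. The hairpins differed by -0.40 ± 0.09 (SE, limma, adjusted p = 0.0100). NSD2 was lower with shRNA 2 by 0.31, with an SE of 0.07 (limma, adjusted p = 0.0070), and KDM7A by 0.30, with an SE of 0.09 (limma, adjusted p = 0.032). Leaving out shRNA 1 replicate 1 ended the calls of KDM3B (-0.38, limma, adjusted p = 0.0545), PHF5A (0.39, 0.0604), KDM7A (-0.20, 0.217), PHF14 (0.26, 0.0596), PHF23 (0.30, 0.103) and PHF19 (0.21, 0.195). Leaving out shRNA 1 replicate 2 ended those of PHF7 (0.38, limma, adjusted p = 0.0795), NSD3 (0.25, 0.0654), PHF14 (0.24, 0.0883), PHF23 (0.34, 0.0919) and PHF19 (0.28, 0.105). Without shRNA 2 replicate 1 KDM7A (-0.24, limma, adjusted p = 0.122), PHF23 (0.27, 0.0880) and PHF19 (0.22, 0.109) were lost, and without shRNA 2 replicate 2 KDM7A (-0.35, 0.0514) and PHF19 (0.27, 0.0778). PHF19 was also lost without NTC replicate 1 or 2 (0.25 each, 0.0672 and 0.0675).

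Other probe sets bear on these differences unevenly. A second probe set was called in the same direction for PHF21B (0.72 ± 0.15 SE), PHF7 (0.60 ± 0.12), PHF19 (0.32 ± 0.09), NSD3 (0.33 ± 0.07) and KDM3B (-0.25 ± 0.07). The PHF7 one is an _x_at set, and the remaining PHF7 probe set gave 0.07 ± 0.13, reading 40.9 and 35.0 with NTC, 20.1 and 29.0 with PRMT5 shRNA 1, and 24.6 and 28.3 with PRMT5 shRNA 2, below the controls with both hairpins. The remaining PHF19 set gave 0.04 ± 0.11 and was not called. The second PHF19 set read 168 and 166 with NTC, 102 and 95.3 with PRMT5 shRNA 1, and 128 and 127 with PRMT5 shRNA 2, below the controls with both hairpins. The other probe set of PHF14 gave -0.00 ± 0.08 between the hairpins, that of PHF23 0.10 ± 0.11 and that of KDM7A -0.20 ± 0.10, none of them called. The remaining 4 of NSD3 gave -0.25 to -0.07 and were not called. Of the other 5 of NSD2, 4 gave -0.16 to -0.09 and 1 was called in the opposite direction (0.22 ± 0.07). PHF5A had no other kept probe set. Among members whose brightest probe set was not called between the hairpins, some had another that was. The largest such differences were in KMT2C (-0.68 ± 0.12), PHF6 (-0.66 ± 0.11), KMT2A (0.61 ± 0.10) and SUV39H2 (-0.53 ± 0.11).

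**Figure D4:**
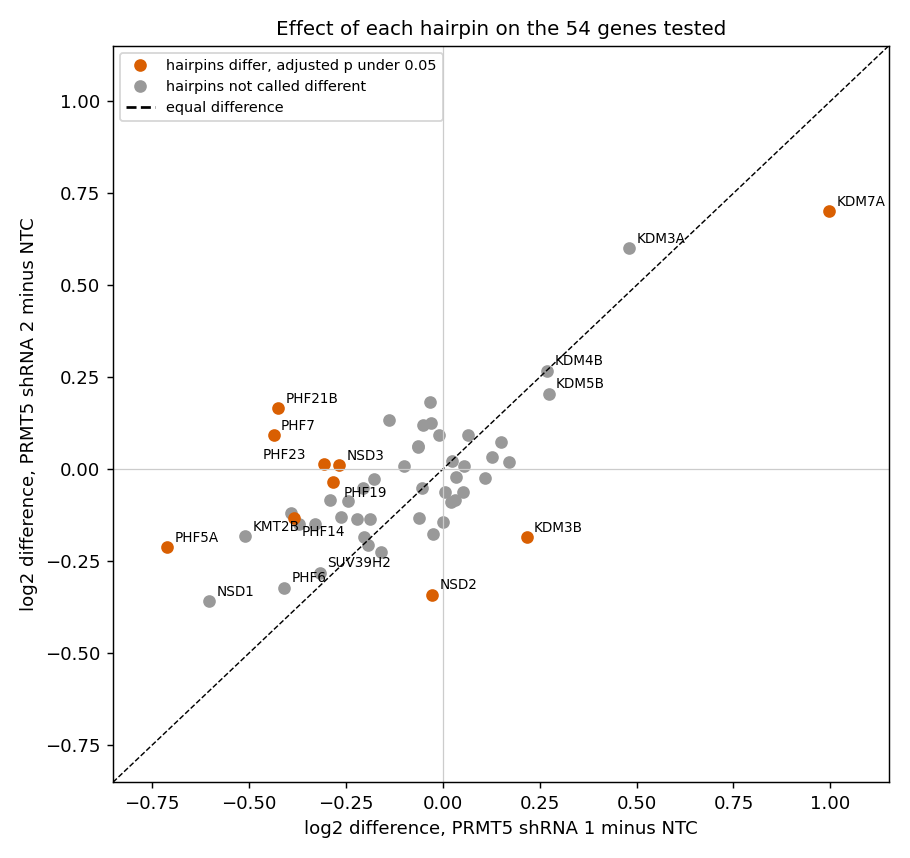
Log2(intensity + 16) difference from NTC of the 54 tested genes with PRMT5 shRNA 1 (horizontal) and PRMT5 shRNA 2 (vertical), 1 point per gene, with a dashed line where the hairpins have equal differences. Both axes share the NTC arrays. Orange points are the 10 genes called different between the hairpins, of which PHF21B, at -0.42 and 0.17, lies farthest from the line.

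The knockdown was deeper with shRNA 1, as given above for PRMT5. A measure of RNA quality also differed between the hairpins. For the ACTB control probe sets, the 3′ over 5′ ratio was 4.58 and 4.88 with NTC, 3.49 and 3.88 with PRMT5 shRNA 1, and 5.72 and 4.995 with PRMT5 shRNA 2, while that of GAPDH was 1.21 to 1.23 with both hairpins and 1.26 and 1.33 with NTC. The markers HOXB13, ERG and COL1A1 also differed between the hairpins, as given above. The part of any of these in the differences between hairpins was not tested.

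The windows around the starts of the members were also searched for TTTCCCGC and TTTGGCGC, forms of the binding site of E2F factors, since EZH2 is a known E2F target. A match on either strand was found in 5 of 72 windows of members (6.94%) and in 2.27% of all 35116 windows. By gene, these were 10.2% of members with a window and 2.75% of all genes. The windows of members had a median GC content of 69.3% against 58.7% for all windows, and those of members that fell had 74.7%. A match lies in EZH2, NSD2 and PHF20, 3 of the 8 members with a window that fell in the averaged comparison. It also lies in PHF19 (-0.16 ± 0.07 SE) and KDM1B (0.11 ± 0.08), which did not pass that comparison. PHF19 was called lower with PRMT5 shRNA 1 (-0.28 ± 0.08, limma, adjusted p = 0.0169). NSD2 was called lower with PRMT5 shRNA 2 and not with shRNA 1. The PHF19 call was lost without NTC replicate 1 (-0.31, limma, adjusted p = 0.0595), NTC replicate 2 (-0.26, 0.103) or shRNA 1 replicate 1 (-0.24, 0.102). Stretches of 60 bases with the match in capitals are given 5′ to 3′ on the gene's strand (RefSeq, GRCh38.p14), for chr7:148884257-148884316 (minus), chr4:1871290-1871349 (plus), chr20:35771818-35771877 (plus), chr9:120877307-120877366 (minus) and chr6:18155180-18155239 (plus).
EZH2: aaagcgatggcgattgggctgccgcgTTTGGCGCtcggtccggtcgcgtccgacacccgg
NSD2: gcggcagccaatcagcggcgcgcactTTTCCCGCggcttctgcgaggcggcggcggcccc
PHF20: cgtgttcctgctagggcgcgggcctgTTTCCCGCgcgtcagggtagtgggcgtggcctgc
PHF19: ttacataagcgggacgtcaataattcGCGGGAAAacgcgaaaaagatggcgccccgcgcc
KDM1B: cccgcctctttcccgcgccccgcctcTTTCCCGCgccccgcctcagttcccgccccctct
The KDM1B window holds 2 matches, and the one nearer the start is in capitals. In EZH2 the match begins at base 2 after the start, and in NSD2 it begins 77 bases before it. These matches likewise describe letters alone.

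Partners of these enzymes, from lists that are no part of the rule, moved in both directions in the averaged comparison. In it, 32.4% of all genes were called (15.4% higher, 17.0% lower). Of 9 tested partners in Polycomb repressive complex 2, 0 rose and 2 fell, the histone chaperone RBBP7 (-0.18 ± 0.05 SE) and EPOP (-0.24 ± 0.08). Of 13 subunits of the H3K4 methyltransferase complexes, 1 rose, DPY30 (0.23 ± 0.06), and 1 fell, MEN1, which encodes menin (-0.30 ± 0.07). Of 12 genes of H3K9 methylation and heterochromatin, 1 rose and 4 fell. The partner of EHMT1 and EHMT2, WIZ, rose by 0.29 ± 0.08, and the methyltransferase genes SETDB2 (-0.36 ± 0.11) and SETDB1 (-0.28 ± 0.08), the reader MPHOSPH8 (-0.29 ± 0.07) and CDYL fell. The median differences of these 3 lists were 0.01, -0.01 and -0.01. With PRMT5 shRNA 1, 4 (44.4%), 6 (46.2%) and 4 (33.3%) of their genes were called, where 39.3% of all genes were. With PRMT5 shRNA 2, 0, 1 (7.69%) and 3 (25.0%) were called, where 21.4% of all genes were. CBX5 was called higher with shRNA 1 (0.32 ± 0.08) and lower with shRNA 2 (-0.37 ± 0.08). RBBP5 was called higher with shRNA 1 (0.47 ± 0.08) and not with shRNA 2 (-0.16 ± 0.08).

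Of 13 tested further lysine methyltransferases and PRDM genes, 1 rose and 4 fell (median -0.13). PRDM15 fell by 0.48, with an SE of 0.07 (limma, adjusted p = 0.00058), reading 364 and 382 with NTC, 266 and 236 with PRMT5 shRNA 1, and 267 and 288 with PRMT5 shRNA 2. Its knockdown arrays lay apart from the controls. MECOM rose (0.33 ± 0.10 SE), and DOT1L, the H3K79 methyltransferase (-0.24 ± 0.08), and PRDM10 (-0.24 ± 0.08) fell, as did SETMAR. Of 10 further JmjC proteins, 1 rose and 3 fell (median -0.12). RIOX1, an oxygenase of the nucleolus, rose (0.46 ± 0.09), and HSPBAP1 (-0.39 ± 0.08), JMJD8 (-0.32 ± 0.08) and RIOX2 (-0.27 ± 0.05) fell. Of 10 partners of KDM1A, 2 rose, ZNF217 (0.25 ± 0.07) and RCOR3 (0.15 ± 0.05), and 0 fell (median 0.01). With PRMT5 shRNA 1, 7 (53.8%), 6 (60%) and 6 (60%) genes of these lists were called, where 39.3% of all genes were. With PRMT5 shRNA 2, 2 (15.4%), 2 (20%) and 0 were called, where 21.4% of all genes were.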

How the data were processed

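Affymetrix arrays of 6 VCaP samples were grouped by their titles into 3 groups of 2. Per the submitters' processing notes the authors used MAS5, and what they deposited is a linear intensity for each probe set. Every array had a mean near 150.0 once 2% of values at each end were trimmed, so the arrays were scaled alike. The sources used here give neither the version nor a genome build. The number of arrays limits the precision. Of 54675 probe sets, 41091 had 1 symbol in the platform annotation. A probe set was kept if it reached the median of its array's non-control probe sets in at least 2 arrays, and the brightest stood for its gene, which left 12413 genes.

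Limma 3.58.1 (R 4.3.3, eBayes with an intensity trend, 3 residual and 7.89 prior degrees of freedom) was applied to log2(intensity + 16), which understates differences of dim genes. Tests were two-sided, with Benjamini-Hochberg adjustment over all genes. The fit was tested on simulated data with independent noise and the same planted difference with both hairpins. The averaged comparison recovered 65.7% of planted differences of 0.5 and 98.5% of those of 1. Smaller differences were not planted, so their recovery is not known. Members and gene lists were chosen with earlier results of these data known. Members called in the averaged contrast or between the hairpins are given by array, up to 15 of each, and up to 4 called genes per partner list with values; others were named after their values were seen. Alternatives were the pseudocount, the filter, quantile normalization, the mean over probe sets, no _x_at or _s_at probe sets, no trend, a replicate block, both hairpins as 1 group, and leaving out each array. Coordinates come from the RefSeq promoter table, which holds 49 of the 55 members.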

Additional observations from a re-analysis of the deposited data

Results flagged for a closer look

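The hairpins differed in 10 of 54 members (18.5%) by the direct test, a share below the 25.7% of all genes tested. On the log2(intensity + 16) scale, PRMT5 shRNA 2 minus PRMT5 shRNA 1 was 0.59 for PHF21B, 0.53 for PHF7, 0.50 for PHF5A, 0.32 for PHF23, 0.28 for NSD3, 0.25 for PHF14 and 0.25 for PHF19. It was -0.40 for KDM3B, -0.31 for NSD2 and -0.30 for KDM7A. Limma's adjusted p lay between 0.00064 (PHF21B) and 0.043 (PHF19). PHF21B, PHF7, PHF23 and NSD3 had values of opposite sign against NTC with the hairpins, and so had KDM3B. None of these genes passed against NTC with shRNA 2, where PHF23 and NSD3 gave 0.01 each. KDM3B did not pass with shRNA 1 either.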

How the results depend on the processing

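Of the 14 members called in the averaged comparison, KDM7A and PHF6 kept their call under all 15 alternatives. KDM3A kept its call under all 14 that gave it a value. Its only kept probe set is an _s_at set, so the alternative without _x_at and _s_at sets could not test it. In that alternative 1 member, KDM7A, was called higher. The number of members called was 14, and 6 (3 higher, 3 lower) when all 4 knockdown arrays formed 1 group, so that differences between the hairpins count as scatter. Leaving out 1 array gave 9 to 16 for the averaged comparison, 14 to 24 for PRMT5 shRNA 1 (22 with all arrays), 4 to 10 for PRMT5 shRNA 2 (9) and 6 to 9 between the hairpins (10). The lowest counts came without NTC replicate 1 or 2 (9 averaged, 4 with shRNA 2), without shRNA 1 replicate 2 (14 with shRNA 1, 6 between the hairpins) and without shRNA 1 replicate 1 (6 between the hairpins). Fewer arrays leave fewer degrees of freedom. Calls over all genes in the averaged comparison went from 4016 to 1501 with the hairpins as 1 group, to 2200 without NTC replicate 1 and to 2315 without NTC replicate 2.

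The sign changed without _x_at and _s_at probe sets for KDM5B (-0.28 averaged, with shRNA 1 and with shRNA 2), KDM4B with shRNA 1 (-0.0010) and NSD3 between the hairpins (-0.10), where another probe set stands for the gene. The mean over probe sets ended the averaged calls of KDM4B, KDM5B, NSD1, NSD2, PHF20, SETD4 and SUV39H2.

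Replicates with the same number did not deviate together (correlations over genes of -0.09, -0.18 and -0.0045 between groups). With 2 arrays per group, this cannot tell whether samples of the same number were handled together. With a replicate block 13, 22, 7 and 9 members were called in the 4 comparisons, and calls were lost for EZH2 (averaged), KMT2E (shRNA 1), KDM5B and SETD1B (shRNA 2) and PHF19 (between the hairpins).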
